A study of Homo sapiens with 6 samples.

Results

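Cytoglobin and 4 genes that act with nitric oxide were followed in A375 cells, an established human melanoma line, by RNA sequencing. The genes were taken by name from the deposited table, and all 5 were found among its 2778 features. They are CYGB, which encodes cytoglobin, CYB5B, a cytochrome b5, NOS1, the neuronal nitric oxide synthase, ASS1, argininosuccinate synthase, and PRKG1, the cGMP-dependent protein kinase. CYGB-overexpressing cells (CYGB-OE, n = 3 libraries), headed hCYGB in the table, were compared with wildtype cells (WT, n = 3 libraries). Cells of both groups were untreated and grown alike, in DMEM with fetal bovine serum and antibiotics. The series asks which transcripts differ when cytoglobin is overexpressed. The labels give no vector, promoter or clone for the overexpression and name no empty-vector control. They also do not say whether each library had its own culture, and p-values then reflect the spread among these libraries alone, which may be technical.

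Cytoglobin is a haem protein of the globin family that is found in many tissues and, among others, in melanocytes. With bound oxygen it turns nitric oxide into nitrate, which leaves its haem iron oxidized, and cytochrome b5 with its reductase can reduce that iron again. Nitric oxide is made from arginine by the synthases, which release citrulline, and ASS1 catalyses the first step that turns citrulline back into arginine. Nitric oxide then activates the soluble guanylate cyclases, and the cGMP they make activates PRKG1. Many melanomas have little ASS1 and depend on arginine from outside the cell.

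The rule by which the authors chose the rows of the table is not stated, but the values have the form of a selection on the difference between these same libraries. After scaling, the ratio of the group means lay beyond -0.995 or 0.995 on the log2 scale for every feature with counts in both groups. Genes inside that band are not in the table and were not analysed here. The table's column totals, 1533260 to 1897052 counts in CYGB-OE and 2025159 to 2801576 in WT, are sums over the listed features, and the depth of the libraries is not known from them. Of 2465 features that passed the filter on low counts, 99.8% were called (edgeR quasi-likelihood test, Benjamini-Hochberg adjusted over all features tested, threshold 0.05), 28.3% as higher and 71.5% as lower in CYGB-OE, and in 98.8% the groups did not overlap. A call on a single gene is therefore shared by nearly all features here and, if rows were selected in this way, is no independent evidence. CYGB-OE replicate 1 stood apart: the median absolute log2 difference over the features tested was 0.437 from replicate 2 and 0.446 from replicate 3, while those of CYGB-OE lay 0.201 from each other and pairs of WT libraries 0.173 to 0.181. The level between the groups was set at the middle of the empty band, which takes the selection to be symmetric, a choice that bears on every gene below, since TMM over the whole table raised all log2 fold changes by 1.20.

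CYGB was very much higher in CYGB-OE. This ENSG00000161544 gene lies on the minus strand of GRCh38 chromosome 17, from 76527356 to 76551175. It had 22518, 20740 and 26267 counts in CYGB-OE replicates 1 to 3, against 33, 47 and 37 counts in WT replicates 1 to 3. Divided by the scale factors, these were 24020, 23160 and 23870 normalized counts in CYGB-OE, against 36.3, 37.15 and 39.3 in WT. The groups lay far apart and the libraries of each group lay close together, replicate 1 of CYGB-OE included. The mean was 23680 ± 459 normalized counts in CYGB-OE and 37.6 ± 1.56 in WT (SD, n = 3 each), a ratio of 630. On the log2 scale the fold change was 9.30 with an SE of 0.11 (edgeR adjusted p = 1.81e-10), the highest of the 698 features above 0. CYGB held 1.33%, 1.35% and 1.39% of the table's counts in the CYGB-OE libraries, against 0.00163%, 0.00168% and 0.00178% in the WT libraries. By count it ranked 12 of the table's features in each CYGB-OE library, against 1794, 1768 and 1741 in WT replicates 1 to 3.

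**Figure D1:**
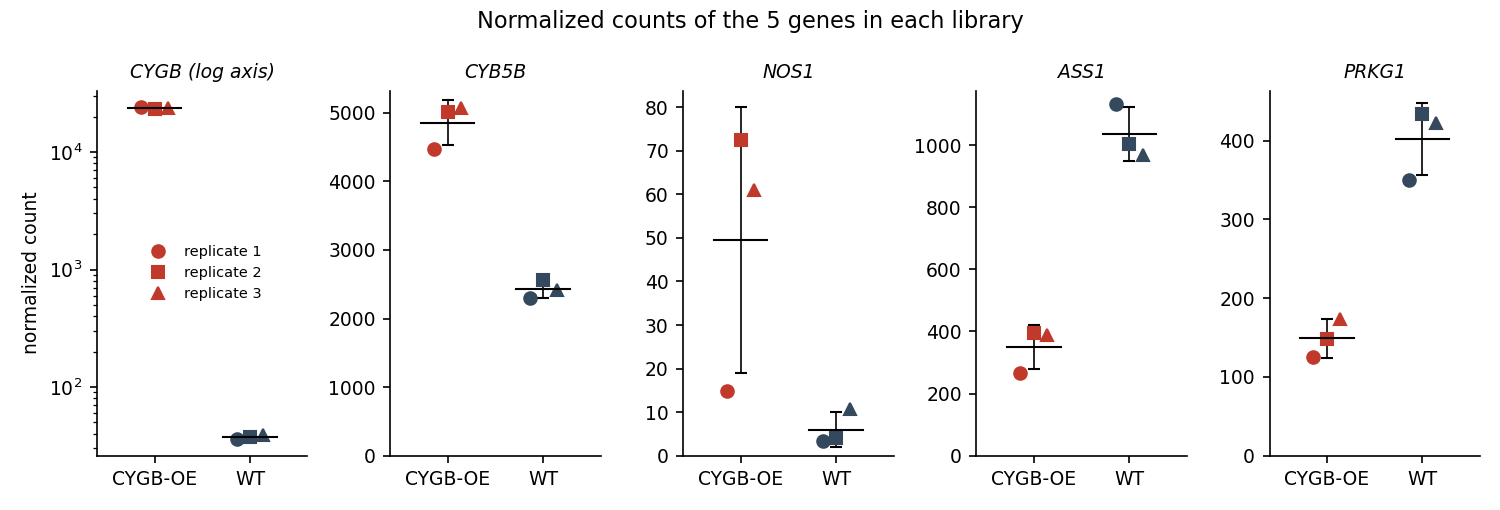
Normalized counts (y axis; logarithmic for CYGB, linear and from 0 for the other genes) of the 5 genes in CYGB-OE and WT libraries, with 1 symbol per library, a line at the mean and a bar of 1 SD (n = 3). CYGB lies between 23160 and 24020 in every CYGB-OE library, CYB5B is higher in each CYGB-OE library, ASS1 and PRKG1 are lower in each, and NOS1 in CYGB-OE replicate 1, at 14.9, sits close to WT replicate 3, at 10.6.

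A second transcript of the same place in the genome moved the other way. AC015802.4 (ENSG00000267546) is annotated on the strand of CYGB, on chromosome 17 from 76545668 to 76557683, and its exons share 302 bases with those of CYGB. It was the one gene overlapping any of the 5 that was also in the table. It had 3, 11 and 7 counts in CYGB-OE, against 39, 45 and 26 in WT. Every CYGB-OE library was below every WT library, with means of 7.28 ± 4.61 and 35.4 ± 7.63 normalized counts in CYGB-OE and WT (SD, n = 3 each). Its log2 fold change was -2.28 (SE 0.43; edgeR adjusted p = 0.000864), and -1.09 under TMM over the whole table, where the call was lost (adjusted p = 0.0673). The shared bases are noncoding in CYGB, as are the 248 exon bases that CYGB shares with PRCD on the opposite strand. The sources used here give neither the assignment of reads on shared bases nor the strand setting, and counts of WT CYGB and of AC015802.4 are uncertain to that extent.

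**Figure D2:**
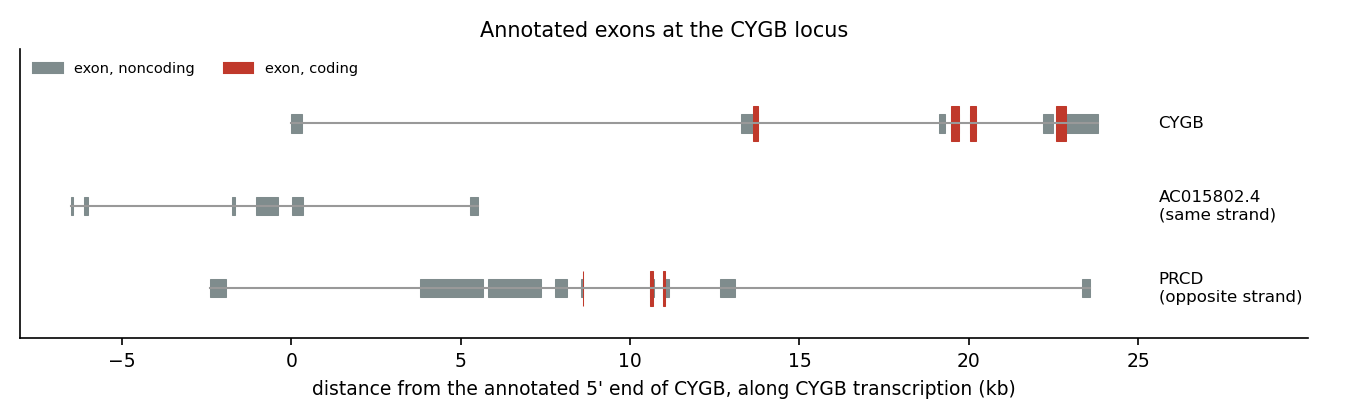
Exons of CYGB, AC015802.4 and PRCD along the distance from the annotated 5' end of CYGB (x axis, kb, in the direction of CYGB transcription), with coding parts taller and in red. AC015802.4 and PRCD overlap CYGB exons at noncoding parts, 302 and 248 bases long.

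CYB5B encodes the cytochrome b5 of the outer mitochondrial membrane, a small haem protein that passes electrons from NADH-dependent reductases to other enzymes. The gene (ENSG00000103018, GRCh38 chromosome 16, 69424525 to 69466266, plus strand) had 4197, 4485 and 5587 counts in CYGB-OE, against 2093, 3240 and 2276 in WT. As normalized counts these were 4477, 5008 and 5077 in CYGB-OE, against 2302, 2561 and 2419 in WT. The groups did not overlap, and replicate 1 was the lowest of the CYGB-OE libraries. CYB5B rose to 4854 ± 328 normalized counts in CYGB-OE, against 2427 ± 130 in WT (SD, n = 3 each), and the log2 fold change of 1.0 had an SE of 0.10 (edgeR adjusted p = 2.58e-05). That places it next to the empty band: it ranked 693 among the 698 features above 0, whose median log2 fold change was 1.40 and whose smallest was 0.99. Of the exon bases of CYB5B, 35.1% are shared with AC026464.2, a noncoding RNA on the same strand that is annotated over noncoding exon sequence, so part of these counts is uncertain.

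NOS1 makes nitric oxide in neurons and skeletal muscle. Its counts were low in all libraries. The gene (ENSG00000089250, GRCh38 chromosome 12, 117208142 to 117452170, minus strand) had 14, 65 and 67 counts in CYGB-OE, against 3, 5 and 10 in WT. Scaled, these were 14.9, 72.6 and 60.9 normalized counts in CYGB-OE, against 3.30, 3.95 and 10.6 in WT. CYGB-OE replicate 1 stood well below the other CYGB-OE libraries and only a little above WT replicate 3, and the groups did not overlap. The mean was 49.5 ± 30.5 normalized counts in CYGB-OE and 5.96 ± 4.06 in WT (SD, n = 3 each). NOS1 rose by 3.06 on the log2 scale (SE 0.68; edgeR adjusted p = 0.00249), which ranked 50 among the 698 features above 0. With 2 added to each normalized count, replicate 1 lay 2.02 log2 units below the mean of replicates 2 and 3 for NOS1, a wider gap than in 98.3% of the features tested. Adjusted over all 58780 annotated genes, with those outside the table counted as not significant, the NOS1 call was lost (edgeR adjusted p = 0.0594). Under that adjustment 74% of the features tested were called, 19.1% as higher and 54.8% as lower. The log2 fold change was 3.49 without CYGB-OE replicate 1 and 3.71 without WT replicate 3, and 2.70 to 2.87 with any of the other libraries left out.

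ASS1, which condenses citrulline and aspartate, was lower in CYGB-OE. The gene (ENSG00000130707, GRCh38 chromosome 9, 130444929 to 130501274, plus strand) had 250, 355 and 426 counts in CYGB-OE, against 1030, 1272 and 910 in WT. These were 266.7, 396.4 and 387.1 normalized counts in CYGB-OE, against 1133, 1005 and 967.2 in WT. No CYGB-OE library reached the level of any WT library, and replicate 1 was the lowest of all. ASS1 fell to 350.1 ± 72.3 normalized counts in CYGB-OE, against 1035 ± 86.9 in WT (SD, n = 3 each). Its log2 fold change was -1.56 (SE 0.17; edgeR adjusted p = 4e-05), close to the median of -1.58 among the 1767 features below 0. Under TMM over the whole table, which called 30% of features as higher and 18.7% as lower, it was -0.36 and the call was lost (adjusted p = 0.0991). The annotation holds 11 pseudogenes of ASS1 by name, none of which is in the table, and the treatment of reads that match several of these copies is not stated.

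PRKG1, the kinase through which cGMP relaxes smooth muscle, was also lower. The gene (ENSG00000185532, GRCh38 chromosome 10, 50990891 to 52298350, plus strand) had 117, 133 and 191 counts in CYGB-OE, against 318, 549 and 397 in WT. Normalized counts were 124.8, 148.5 and 173.6 in CYGB-OE, against 349.7, 433.9 and 421.9 in WT, with no overlap. PRKG1 fell to 149.0 ± 24.4 normalized counts in CYGB-OE, against 401.8 ± 45.5 in WT (SD, n = 3 each). The log2 scale puts this at -1.43 (SE 0.17; edgeR adjusted p = 7.93e-05), a larger change than in 41.4% of the features below 0. TMM over the whole table gave -0.23 without a call (adjusted p = 0.33). PRKG1-AS1, on the opposite strand, shares 1.32% of the exon bases of PRKG1.

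Replicate 1 of CYGB-OE differed from replicates 2 and 3 by unlike amounts from gene to gene. On the log2 scale it was 0.03 above their mean for CYGB, and -0.17 for CYB5B, -0.36 for PRKG1, -0.55 for ASS1 and -2.02 for NOS1 relative to it. Over all features tested the median size of this deviation was 0.42. CYGB itself was thus as high in replicate 1 as in the other CYGB-OE libraries, while NOS1 was not. Without replicate 1 the log2 fold changes were 9.29 for CYGB, 1.05 for CYB5B, -1.40 for ASS1 and -1.32 for PRKG1, all of them still called, as were 99% of the features tested. The part of this library in the results on NOS1 was not tested beyond leaving it out.

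Divided by the length of their annotated exons, the 5 transcripts differed in order between the groups only in the place of CYGB. The means of the others kept their order. In CYGB-OE, CYGB was first with 8031 ± 156 normalized counts per kb, followed by CYB5B with 703.2 ± 47.6, ASS1 with 114.8 ± 23.7, PRKG1 with 11.6 ± 1.90 and NOS1 with 3.77 ± 2.32 (SD, n = 3). In WT the order was CYB5B with 351.6 ± 18.8 normalized counts per kb, ASS1 with 339.4 ± 28.5, PRKG1 with 31.3 ± 3.55, CYGB with 12.75 ± 0.53 and NOS1 with 0.45 ± 0.31 (SD, n = 3). Each neighbour in the CYGB-OE order lay apart from the next in all 3 libraries. In WT, CYB5B and ASS1 did not differ beyond their spread, with ranges of 333.5 to 371.0 and 317.1 to 371.5 per kb, and the other neighbours lay apart. These levels take the whole annotated exon length, from 2949 bases for CYGB to 13113 for NOS1. The exons held by the overexpressed CYGB transcript are not stated, and a shorter transcript would have a higher level per kb.

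**Figure D3:**
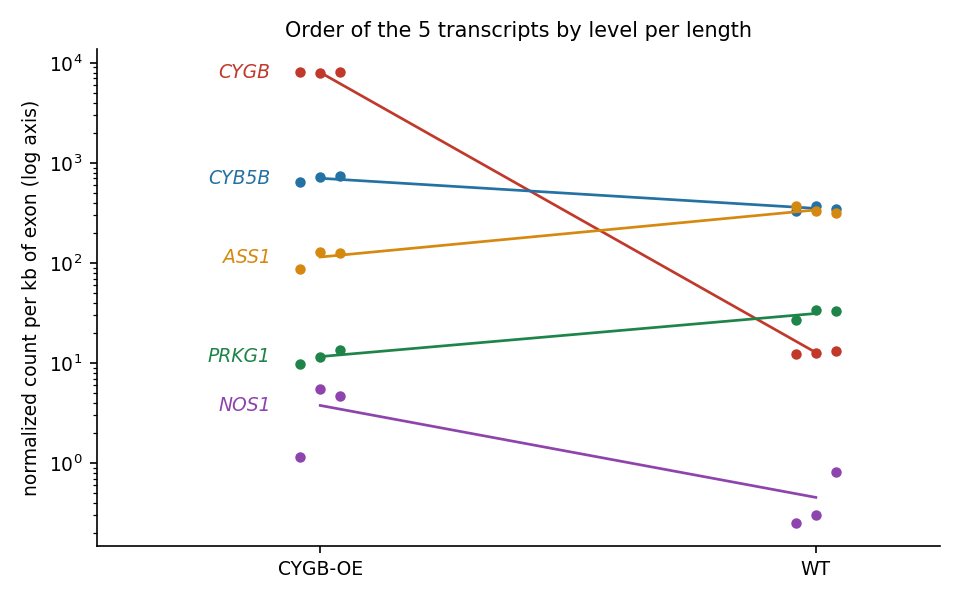
Normalized counts per kb of annotated exon (y axis, logarithmic) for each gene in CYGB-OE and WT, with 1 point per library and lines joining the group means. CYGB is first in CYGB-OE and lies between PRKG1 and NOS1 in WT, where CYB5B and ASS1 coincide.

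Ratios between genes of the same library do not depend on how the groups were scaled. CYGB over CYB5B, per kb, was 12.6, 10.8 and 11.0 in the CYGB-OE libraries, against 0.0369, 0.0340 and 0.0380 in the WT libraries. CYB5B over ASS1 was 7.42, 5.58 and 5.80 in CYGB-OE, against 0.898, 1.13 and 1.11 in WT, a log2 difference of 2.58 with SDs of 0.22 and 0.18 in CYGB-OE and WT. This gain of CYB5B on ASS1 exceeded the spread between libraries, whatever the scaling. However, the empty band was 1.99 log2 units wide. Any listed higher gene therefore gains about that much or more on any listed lower gene. CYB5B over PRKG1 was 66.7, 62.7 and 54.4 in CYGB-OE, against 12.2, 11.0 and 10.7 in WT, a log2 difference of 2.44. NOS1 over ASS1 differed by 4.55 log2 units, with wide SDs of 0.93 in CYGB-OE and 1.01 in WT, and NOS1 over PRKG1 by 4.40. ASS1 over PRKG1, in contrast, was 8.99, 11.2 and 9.38 in CYGB-OE, against 13.6, 9.74 and 9.64 in WT, overlapping ranges with a log2 difference of -0.14 that was smaller than the SD of either group. The exact permutation test over the 6 libraries, two-sided, gave p = 0.5 for ASS1 over PRKG1 and p = 0.1 for each of the 5 other ratios computed, which is the smallest value that 3 against 3 libraries allow. Adjusted over the 6 ratios by Benjamini-Hochberg, these permutation p-values were 0.5 and 0.12. A p of that size misses the threshold and settles nothing, and the table appears to hold only genes that differ. Ratios of a higher to a lower gene would then differ through the selection alone.

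**Figure D4:**
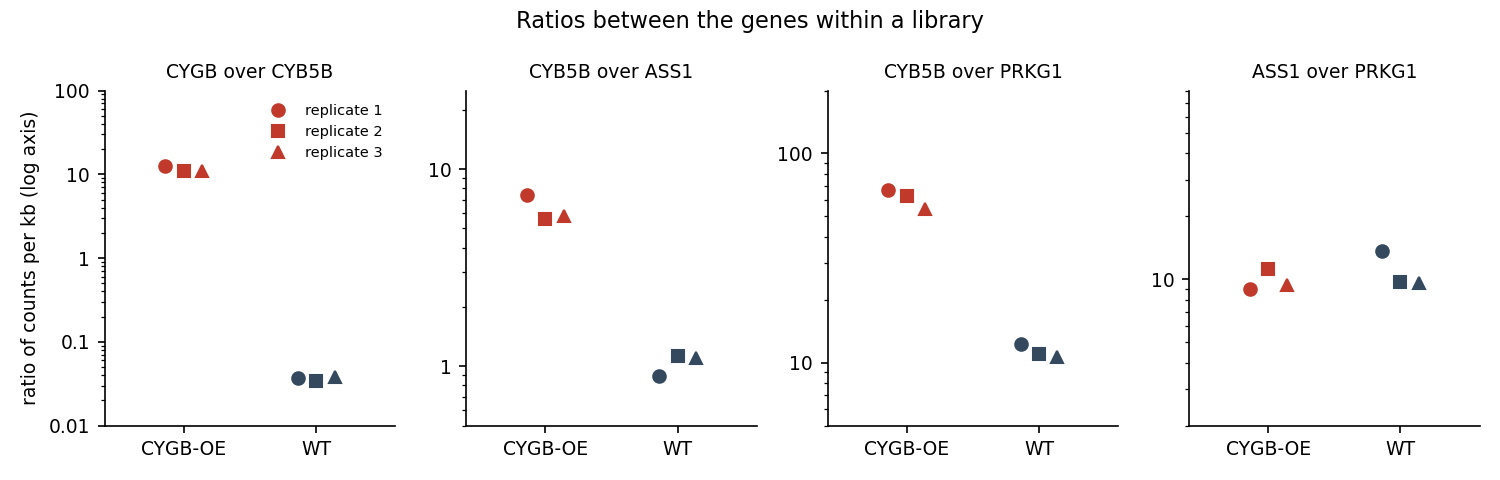
Ratios of counts per kb between pairs of genes within a library (y axes, logarithmic), for CYGB-OE and WT, with 1 symbol per library. CYGB over CYB5B, CYB5B over ASS1 and CYB5B over PRKG1 are higher in every CYGB-OE library, and ASS1 over PRKG1 overlaps between the groups.

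Other genes of nitric oxide, cGMP and electron supply were looked up in 9 lists of 109 genes, the 5 included. Of these, 15 were in the table and all 15 were tested, of which 8 rose and 7 fell. Their median log2 fold change of 1.0 was that of CYB5B, the smallest of the 8, and the median over all features tested was -1.30. With an empty band between the directions, such a median turns on the side of a single gene. Leaving the 5 aside, 5 of 10 rose and 5 fell, with a median log2 fold change of 0.05, against the 28.3% higher and 71.5% lower of the whole table. With TMM over the whole table the 8 were still called as higher, but none of the 7 was called as lower, and CPS1 turned to 0.16. Of all features tested under it, 30% were called as higher and 18.7% as lower. That scaling raised all fold changes, so it was no test of the 8 higher genes. The groups did not overlap for any of the 15, nor for 98.8% of all features tested. Lists of tetrahydrobiopterin supply, with 6 genes, and of haem synthesis and handling, with 17, had none in the table, so their genes were not analysed here.

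Of 12 nitric oxide synthases and partners, 2 were in the table and both rose, as did 28.3% of all features tested. NOS1 was the one synthase among them. HSP90AA1, a chaperone that binds the synthases, had 77000, 75460 and 77680 normalized counts in CYGB-OE, against 27030, 27720 and 27090 in WT. Its log2 fold change was 1.49 (SE 0.06), with all libraries of a group close together. XDH, xanthine dehydrogenase, an enzyme that can also reduce nitrite to nitric oxide, was in the table as the only one of 7 nitrosothiol and nitrite enzymes. It had 67.2, 110.6 and 71.8 normalized counts in CYGB-OE, against 27.5, 24.5 and 20.2 in WT, and rose by 1.78 on the log2 scale (SE 0.29; edgeR adjusted p = 0.000372).

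On the side of arginine, 3 of 15 genes were in the table and all 3 fell, as did 71.5% of all features tested. Beside ASS1 these were CPS1, which makes the carbamoyl phosphate that enters the urea cycle, and SLC7A7, a transporter of cationic amino acids such as arginine. CPS1 had 289.1, 335.0 and 389.9 normalized counts in CYGB-OE, against 658.7, 723.2 and 702.5 in WT, with a log2 fold change of -1.04 (SE 0.14) that turned to 0.16 under TMM over the whole table. SLC7A7 had 6, 11 and 9 counts in CYGB-OE, against 30, 33 and 30 in WT, and a log2 fold change of -1.75 (SE 0.33), which was -0.56 without a call under TMM over the whole table.

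Of 16 genes of cGMP synthesis and breakdown, 2 were in the table, 1 higher and 1 lower. Of 10 cGMP kinases and their substrates, PRKG1 included, 2 were in the table, also 1 higher and 1 lower. Over all features tested the shares were 28.3% higher and 71.5% lower. NPR1, a receptor for natriuretic peptides that makes cGMP at the cell membrane, fell, with 10, 16 and 29 counts in CYGB-OE against 45, 72 and 37 in WT and a log2 difference of -1.39 (SE 0.35; edgeR adjusted p = 0.00415). The NPR1 call was lost when adjusted over all annotated genes (adjusted p = 0.099) and under TMM over the whole table, where the log2 fold change was -0.20. PDE3B, a phosphodiesterase that cGMP inhibits, rose, with 277.3, 367.4 and 357.2 normalized counts in CYGB-OE against 122.1, 157.3 and 163.7 in WT and a log2 fold change of 1.18 (SE 0.18). RGS2, a regulator of G-protein signalling that PRKG1 phosphorylates, rose with a log2 fold change of 2.93 (SE 0.35). It had 2865, 4878 and 5021 normalized counts in CYGB-OE, against 398.1, 818.0 and 457.0 in WT. Replicate 1 was the lowest CYGB-OE library for RGS2, as it was for most of the pathway genes.

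Of 12 genes of cytochrome b5 and the enzymes that pass or take its electrons, 4 were in the table, 2 higher and 2 lower. Over all features tested, 28.3% were called as higher and 71.5% as lower. CYB5D1, which encodes a protein with a cytochrome b5 domain, had 288.0, 226.7 and 249.9 normalized counts in CYGB-OE, against 121.0, 95.6 and 130.7 in WT, and rose like CYB5B (log2 fold change 1.14, SE 0.18). CYB5R2, a reductase that hands electrons to cytochrome b5, fell, with 375.5, 184.3 and 179.9 normalized counts in CYGB-OE against 795.1, 791.1 and 769.5 in WT. Its log2 fold change was -1.67 (SE 0.28), and replicate 1 was here the highest CYGB-OE library. MARC2, a mitochondrial reductase that takes electrons from CYB5B, had 45.9, 54.7 and 40.9 normalized counts in CYGB-OE, against 124.3, 110.6 and 98.8 in WT, and fell with a log2 fold change of -1.24 (SE 0.21). Under TMM over the whole table CYB5R2 and MARC2 were at -0.47 and -0.042, both without a call. CYGB was the only one of 14 globin genes in the table.

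**Figure D5:**
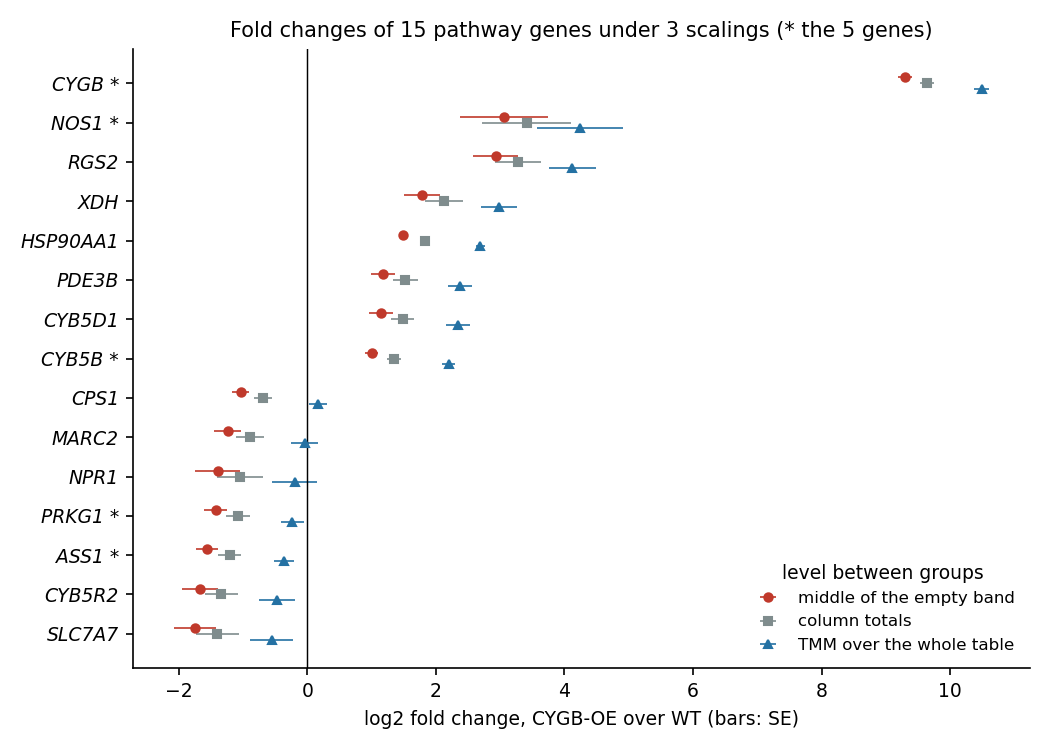
Log2 fold changes (x axis, CYGB-OE over WT, bars of 1 SE) of the 15 pathway genes in the table under 3 ways of setting the level between the groups, with the 5 genes starred. The 8 higher genes stay above 0 under each, as they must, since column totals and TMM over the whole table raise all fold changes. Of the 7 lower genes all stay below 0 with column totals, while under TMM over the whole table CPS1 turns to 0.16 and none of the 7 is called. That scaling calls 18.7% of all features tested as lower.

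Markers of cell types were in the table for few genes. Of 8 melanocyte markers, DCT and TYRP1 were listed, both melanin enzymes. DCT had 0 counts in each CYGB-OE library, against 2, 13 and 15 in WT, and was not tested. TYRP1 had 8, 3 and 1 counts in CYGB-OE, against 25, 17 and 32 in WT, with a log2 fold change of -2.53, or -3.52 without CYGB-OE replicate 1; its call was lost under TMM over the whole table (adjusted p = 0.124) and when adjusted over all annotated genes (adjusted p = 0.0853). The label as melanoma cells could not be checked further, since the other markers were not analysed here. Normalized counts of the listed endothelial markers, KDR and TIE1 of 6, summed to 16.8 to 34.1 in CYGB-OE, against 165.8 to 191.4 in WT. Under TMM over the whole table KDR was still called (log2 fold change -2.37, edgeR adjusted p = 4e-05). TIE1 was not (log2 fold change -0.86, edgeR adjusted p = 0.1). ACTA2, the 1 of 6 smooth muscle and fibroblast markers listed, was at 125.9 to 275.4 in CYGB-OE, against 869.4 to 939.2 in WT. It was lower like PRKG1, a gene of smooth muscle, but so were 71.5% of all features tested. Under TMM over the whole table ACTA2 was still called (log2 fold change -0.81, edgeR adjusted p = 0.0316), and PRKG1 was not. Of the neuronal markers, 1 of 4 was listed, MAP2, at 20.0 to 33.1 normalized counts in CYGB-OE, against 52.8 to 75.1 in WT, the opposite direction to NOS1, although MAP2 turned to 0.044 under TMM over the whole table. KRT14, 1 of 3 keratinocyte markers, was at 51.8 to 68.1 in CYGB-OE, against 13.8 to 20.5 in WT, and none of 4 leukocyte markers was listed. The part of such differences in the results above was not tested. Fewer cells of a kind and less RNA per cell cannot be told apart in bulk libraries.

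The features whose pattern over the 6 libraries was most like each gene were found by the root mean square difference of log2 normalized counts, each centred on its own mean, among 2319 named features. Likeness to CYGB was loose, since no feature rose as far: CACNA1E, a calcium channel subunit, MMP3, a stromelysin, and UTS2, urotensin 2, differed from it by 1.81, 1.89 and 2.05 log2 units. CYB5B was most like SLC38A2, a neutral amino acid transporter, TOP1, topoisomerase 1, and LBR, the lamin B receptor, at 0.03 to 0.04 log2 units. SLC38A2 had a log2 fold change of 1.04, TOP1 of 1.05 and LBR of 1.01. NOS1 was closest to AL356515.1, at 0.22 log2 units, which had 21, 65 and 73 counts in CYGB-OE, against 5, 6 and 10 in WT, and so had the same low replicate 1. ADGRF1, an adhesion G-protein-coupled receptor, and VAV3, a guanine nucleotide exchange factor, followed at 0.43 and 0.44. TBX6, KLHDC1 and RAB26 were nearest to ASS1, at 0.06 to 0.08 log2 units, and the cadherin CDH8, RCN3 and the phospholipase PLA2G4A to PRKG1, at 0.07 to 0.09. These are distances over 6 libraries in this table, in which many features share the split between the groups.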

How the data were processed

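The authors deposited a table of raw counts with 1 column for each of 6 libraries, and the file header gives gene identifiers and names. The submitters' processing notes list build GRCh38 and, in no stated order, Subread 1.5.2, featureCounts, STAR 2.5.2b and Trimmomatic 0.36. Of 2615 Ensembl identifiers, 2611 matched GENCODE 29 (GRCh38), the source of coordinates and exon lengths.

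Counts were tested with edgeR 4.0.16 in R 4.3.3: filterByExpr (minimum count 10), quasi-likelihood F test, two-sided, robust, group as the only term. TMM was run inside each group, and the groups were set level at the middle of the empty band of log2 ratios. Dividing counts by the resulting factors gave normalized counts. SEs come from the F statistic. The scripts were tested on simulated data. The check of the band simulated a symmetric selection, so it did not test whether the selection here was symmetric. The simulated spread between libraries was below that of these data. Alternatives used DESeq2 1.42.0, limma 3.58.1, other scalings and filters, a replicate block and each library left out.

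The members and lists were chosen with earlier results of these data known. Named were the 5 genes, every listed gene in the table (1 gene was taken off the lists and is not reported here), genes overlapping the 5, and the 3 features most like each in log2 normalized counts (prior count 2).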

Additional observations from a re-analysis of the deposited data

How the results depend on the processing

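The level between the groups decided most of what changed. TMM over the whole table, DESeq2 size factors and upper-quartile factors gave 465, 462 and 887 lower features, against 1762 at the middle of the band, and 0, 0 and 4 lower pathway genes, against 7, because they raised all log2 fold changes by 1.20, 1.21 and 0.86. ASS1 was then at -0.36, -0.36 and -0.70 and PRKG1 at -0.23, -0.23 and -0.56, with calls under the last only. CPS1 turned to 0.16 with TMM and 0.17 with DESeq2 size factors, and MAP2 to 0.044 and 0.052. Column totals raised all by 0.35 and ended no pathway call. Adjusted over all annotated genes, NOS1 (log2 fold change 3.06, adjusted p = 0.0594) and NPR1 lost their calls. In the 178 values of pathway genes from the settings that kept the level, these were the only 2 calls lost and 0 reversed. NOS1, SLC7A7, TYRP1 and AC015802.4 did not pass a minimum count of 30, which left 7 higher and 6 lower pathway genes. Leaving out each library gave 694 to 744 higher and 1777 to 1846 lower features, 8 and 7 pathway genes each time, and log2 fold changes of 9.27 to 9.33 for CYGB, 0.96 to 1.05 for CYB5B, 2.70 to 3.71 for NOS1, -1.66 to -1.40 for ASS1 and -1.56 to -1.32 for PRKG1. Same-numbered libraries did not deviate together (correlations -0.017, -0.079 and 0.006 for replicates 1 to 3), and not every library correlated best with its own number. The correlations gave no sign of pairing by number, but with 3 libraries per group they cannot show that the libraries were unpaired. A replicate block gave 696 higher and 1763 lower features, and 9.29, 1.0, 3.03, -1.58 and -1.44 for CYGB, CYB5B, NOS1, ASS1 and PRKG1, all called. The NOS1 counts of 3 to 14 in 4 libraries limit the precision of its fold change.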
